A study of Mus musculus with 10 samples.

Results

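A set of 33 genes of glycolysis and of the response to low oxygen were described in cultured mouse macrophages whose Gnas transcript was low. The genes were listed by name: 21 that run from glucose entry to lactate exit and 12 of the hypoxia response. All 33 were found among the 53465 genes of the count table. All 33 reached a level of at least 1 CPM (counts relative to the size of a library) in at least 5 libraries, so none was left out. This filter used raw library totals, and the CPM values below use scaled library sizes unless stated. Libraries came from peritoneal macrophages, cells washed from the abdominal cavity, that were grown in DMEM with 10% FBS and 1% penicillin-streptomycin at 37 °C and 5% CO2. The mice of both groups were 6 to 8 weeks old, and no agent was added to the cultures. One group was labelled CTR (5 libraries) and the other Mac-GsαKO (5 libraries, called KO here). The name Mac-GsαKO gives Gsα as the protein removed and macrophages as the cells; the Cre driver, the strain, the sex and the alleles of CTR are not given by the labels. Nothing says that each library came from a mouse of its own, so the p-values reflect only how much these libraries vary, which may be technical.

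Glycolysis splits glucose into pyruvate in the cytosol, and lactate dehydrogenase and a lactate exporter remove the product when pyruvate does not enter the mitochondria. Hypoxia-inducible factors (HIFs) are transcription factors whose alpha subunit is marked for breakdown by oxygen-dependent prolyl hydroxylases, and many glycolysis genes are known HIF targets. Macrophages are known to use glycolysis heavily on activation. Gsα, encoded by Gnas, couples receptors to adenylyl cyclase, which makes cAMP.

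HIFs are known to bind DNA at a short core whose letters are ACGTG or GCGTG. The promoters of 4 genes are shown because these genes had the lowest adjusted p-values among the 33: the hexokinase Hk2, the DNA-damage-inducible gene Ddit4, the isomerase Gpi1 and the lactate exporter Slc16a3. Each window is RefSeq sequence on GRCm38.p6 from 250 bases before to 50 bases after the gene's start, 5′ to 3′ on the gene's strand, with ACGTG in capitals, or CACGT where it lies on the other strand. The Hk2 window lies at chr6:82774405-82774704 on the minus strand, with matches that begin 226 and 52 bases before the start. The Ddit4 window lies at chr10:59951721-59952020 on the minus strand, with 1 match, 187 bases before the start. The Gpi1 window lies at chr7:34230287-34230586 on the minus strand and holds no match. The Slc16a3 window lies at chr11:120948817-120949116 on the plus strand, with matches 27 and 14 bases before the start.
Hk2: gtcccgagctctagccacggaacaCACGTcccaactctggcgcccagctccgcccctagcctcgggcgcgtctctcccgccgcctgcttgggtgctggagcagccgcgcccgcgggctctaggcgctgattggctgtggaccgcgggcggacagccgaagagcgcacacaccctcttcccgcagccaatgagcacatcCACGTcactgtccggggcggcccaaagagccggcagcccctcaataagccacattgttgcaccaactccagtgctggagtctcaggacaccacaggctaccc
Ddit4: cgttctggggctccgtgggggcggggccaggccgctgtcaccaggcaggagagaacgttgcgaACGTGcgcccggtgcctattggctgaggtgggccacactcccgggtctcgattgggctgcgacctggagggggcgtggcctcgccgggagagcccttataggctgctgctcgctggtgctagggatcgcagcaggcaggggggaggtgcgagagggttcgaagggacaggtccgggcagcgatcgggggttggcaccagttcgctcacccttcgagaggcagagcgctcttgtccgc
Gpi1: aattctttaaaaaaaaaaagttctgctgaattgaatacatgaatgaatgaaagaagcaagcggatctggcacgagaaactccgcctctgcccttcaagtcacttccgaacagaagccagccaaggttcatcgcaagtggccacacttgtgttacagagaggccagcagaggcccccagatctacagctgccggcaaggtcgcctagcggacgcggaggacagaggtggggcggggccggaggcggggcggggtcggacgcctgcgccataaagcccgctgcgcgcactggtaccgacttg
Slc16a3: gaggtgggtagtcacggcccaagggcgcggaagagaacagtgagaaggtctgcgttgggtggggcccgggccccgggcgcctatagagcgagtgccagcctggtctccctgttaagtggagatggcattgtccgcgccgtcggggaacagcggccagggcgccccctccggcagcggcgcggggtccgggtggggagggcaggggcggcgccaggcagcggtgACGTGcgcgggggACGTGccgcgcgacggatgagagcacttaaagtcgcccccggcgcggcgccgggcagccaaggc

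RefSeq entries were matched for 31 of the 33 genes, in 46 windows, and were not matched for Bnip3l and Ndrg1. ACGTG on either strand stood in 27 of the 46 windows (58.7%), against 19.6% of all 32851 promoter windows of that table and 25.5% of the 11958 windows of tested genes. By gene, 23 of 31 (74.2%) had at least 1 window with a match, against 29.5% of tested genes. Among the other HIF target genes described at the end 42.6% of windows and 58.1% of genes had ACGTG, and among the TCA cycle genes 8 of 20 windows and 3 of 15 genes. The other core, GCGTG, stood in 54.3% of the members' windows and in 50.1% of those of tested genes. CACGTG, which overlaps ACGTG, stood in 10.9% of the members' windows against 10.1% for tested genes. TGACGTCA, the full cAMP response element, stood in 1 of the 46 windows (2.17%), against 3.04% for tested genes. These are counts of letters in a short window and say nothing of binding. Many glycolysis genes are known HIF targets and the 33 were listed by pathway, so a higher share of ACGTG was likely from the start. The windows compared were not matched for base content.

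Gnas checked the labels: the CTR level of 435 ± 62.4 CPM compared with 40.2 ± 2.62 CPM in KO (SD, n = 5 each), with no overlap. Totals ran from 15664243 to 19235777 counts per library. A count of 0 allows up to 3 counts, which was 0.156 to 0.192 CPM of the raw totals, for counting error only. CTR 4 stood apart from the other libraries. Its TMM factor (edgeR's scaling between libraries) was 0.908 against 0.994 to 1.03 in the other 9, and pseudogenes took 5.10% of its counts against 4.03% to 4.44%. CTR 5 stood apart in part. On the first principal component (the main axis of variation among libraries) CTR 4 and CTR 5 both stood at -34.7, and CTR 1 to CTR 3 at -7.77, -6.85 and -18.5. On the second, CTR 4 stood at -46.7 and CTR 5 at 9.46. The lowest correlation between any pair of libraries was 0.970, for CTR 5 with KO 4. The mitochondrial share of counts was 1.39% to 1.97% in CTR and 1.204% to 1.36% in KO, with no overlap. All 10 macrophage markers had counts, and their summed level was 30616 to 39133 CPM in CTR and 15248 to 16817 CPM in KO, with Lyz2 called lower and Csf1r and Itgam called higher. The lower sum did not hold for the 10 markers alike. Of their log2 fold changes 6 were above 0 and 4 below, with a median of 0.14 and a lowest value of -1.52. All 6 B cell markers had counts; their sums were 3.24 to 11.6 CPM in CTR and 12.2 to 19.5 CPM in KO, with no overlap. Sums overlapped for the 8 T and NK cell markers (3.44 to 5.87 against 3.68 to 5.58 CPM), the 7 neutrophil markers (19.1 to 27.8 against 12.5 to 25.7 CPM, Ly6g at 0), the 8 mast cell and eosinophil markers (5.14 to 33.4 against 10.1 to 24.3 CPM) and the 6 dendritic cell markers (2.30 to 5.53 against 2.20 to 5.95 CPM). They overlapped too for the 5 mesothelial markers (5.90 to 34.6 against 12.9 to 19.9 CPM), the 5 fibroblast markers (30.1 to 137 against 48.6 to 65.3 CPM) and the 10 cell cycle genes (195 to 255 against 213 to 270 CPM). Single markers differed where sums overlapped. The neutrophil gene S100a8 fell from 19.1 ± 2.44 to 12.97 ± 2.26 CPM with no overlap (-0.56 on the log2 scale, adjusted p = 0.0443), a call lost without any 1 library except CTR 4 and KO 5 (adjusted p of at most 0.113). Of the 10 cell cycle genes 9 had values below 0, with a median of -0.50 and 0 called in either direction (1 higher and 2 lower at an unadjusted p under 0.05), while Pcna, which makes up most of the sum, was at 0.38 (adjusted p = 0.0613) with every KO library higher. DESeq2 called Pcna higher and Birc5 lower, and voom called Mki67 lower as well. The part of these differences in the results below was not tested.

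Of the 33 genes, 3 were called higher in KO (Hk2, Gpi1 and Ddit4) and 0 lower, by edgeR's quasi-likelihood test with Benjamini-Hochberg adjustment at 0.05. DESeq2 and voom also called 0 lower. Over all 13203 genes tested, 1.83% were called higher and 2.11% lower. At an unadjusted p under 0.05, 15 of the 33 were higher and 0 lower, beside 10.0% of all genes higher and 11.9% lower. The fitted value was above 0 for 31 of the 33, against 49.2% of all genes, and below 0 for Hif1a and Bnip3l. Many of the 33 varied together across libraries, so these signs are not independent. The genes were also listed with earlier results of these data known. The median log2 fold change over the 33 was 0.36, beside -0.01 over all genes. In 5 of them (Hk1, Hk2, Hk3, Pfkp and Ddit4) every KO library lay above every CTR library, as in 3.25% of all genes. The count of calls depended on CTR 4. Without that library 15 of the 33 were called higher and 0 lower, beside 3.62% and 2.87% of all genes, and the median was 0.49. These 15 were Slc2a1, Hk2, Hk3, Gpi1, Aldoc, Pgk1, Eno1, Pkm, Slc16a3, Pdk1, Egln1, Egln3, Ndrg1, Ankrd37 and Ddit4. Other settings called from 1 to 20 of the 33. DESeq2's Wald test called 13 higher (4.62% of all genes), limma voom with quality weights 20 (7.77%) and a fit without CTR 4 and CTR 5 17 (5.13%). Scaling by library size alone called 9 (2.36%), and a correction for gene length and GC content called 2, Hk2 and Ddit4 (1.73%). With no filter on low counts 1 was called, and 122 genes in all were called higher in place of 241. In bulk RNA, fewer cells of a type and less RNA per cell cannot be told apart.

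**Figure D1:**
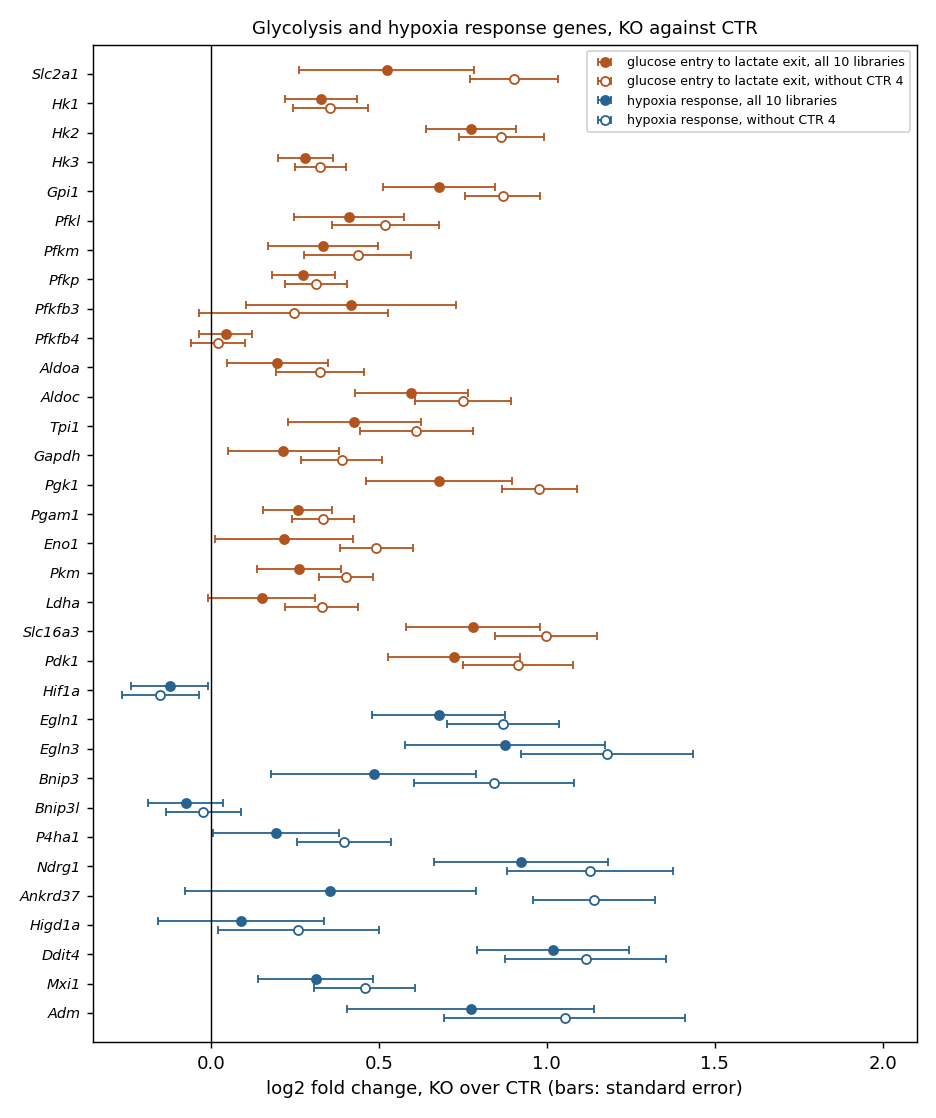
Log2 fold change of KO over CTR (x axis) for each of the 33 genes (y axis), with standard errors as bars; filled points use all 10 libraries and open points leave out CTR 4. The values run from -0.12 for Hif1a to 1.02 for Ddit4 with all libraries, and the median moves from 0.36 to 0.49 without CTR 4.

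Glucose enters through transporters and is trapped by phosphorylation. Slc2a1, the glucose transporter GLUT1, stood at 180.0, 141, 169, 392 and 137 CPM in CTR 1 to CTR 5 and at 269, 336, 227, 325 and 307 CPM in KO 1 to KO 5. CTR 4 was higher than every KO library, and the other 4 CTR libraries were lower than every KO library. Its log2 fold change was 0.52 (SE 0.26, adjusted p = 0.262) with all libraries and 0.90 (SE 0.13, adjusted p = 0.00547) without CTR 4.

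Hexokinases phosphorylate glucose. Hk2, the inducible form that can sit on the mitochondrial surface, rose: it stood at 136, 114, 110.5, 148 and 87.3 CPM in CTR 1 to CTR 5 and at 211, 196, 196, 236 and 179.7 CPM in KO 1 to KO 5. Every KO library was above every CTR library, CTR 4 included. KO over CTR came to a log2 ratio of 0.77 (SE 0.13, adjusted p = 0.0139, 1.71-fold), and it stayed between 0.68 and 0.86 and past the threshold when each of the 10 libraries was left out. Hk3, the form known from myeloid cells, stood at 663, 723, 669.8, 778 and 647 CPM in CTR 1 to CTR 5 and at 889, 825, 784, 925 and 808 CPM in KO 1 to KO 5. The groups did not overlap, with CTR 4 just under KO 3, and the log2 fold change of 0.28 (SE 0.08) missed the threshold (adjusted p = 0.0749). Hk1, the widely expressed form, stood at 69.1, 99.6, 100.2, 100.8 and 98.6 CPM in CTR 1 to CTR 5 and at 117, 123, 112, 122 and 113 CPM in KO 1 to KO 5. Its groups did not overlap either, CTR 1 was the low library, and the log2 fold change was 0.33 (SE 0.11, adjusted p = 0.101).

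Levels were also compared per length (CPM per kilobase, with the lengths implied by the deposited FPKM). Summed over the 3 hexokinases, the level per length was 139 ± 11.7 CPM per kilobase in CTR and 178 ± 12.7 in KO, with no overlap. Hk3 made up 82.1 ± 1.13% of that sum in CTR and 78.0 ± 0.67% in KO, and every KO library had a lower share than every CTR library. Hk2 made up 12.4 ± 1.87% in CTR and 16.7 ± 0.75% in KO, higher in every KO library, while the share of Hk1 overlapped (5.46 ± 0.84% and 5.35 ± 0.29%). Hk3 remained the most abundant of the 3 transcripts in all 10 libraries. These shares come from the same counts as the tests and were not tested themselves.

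**Figure D2:**
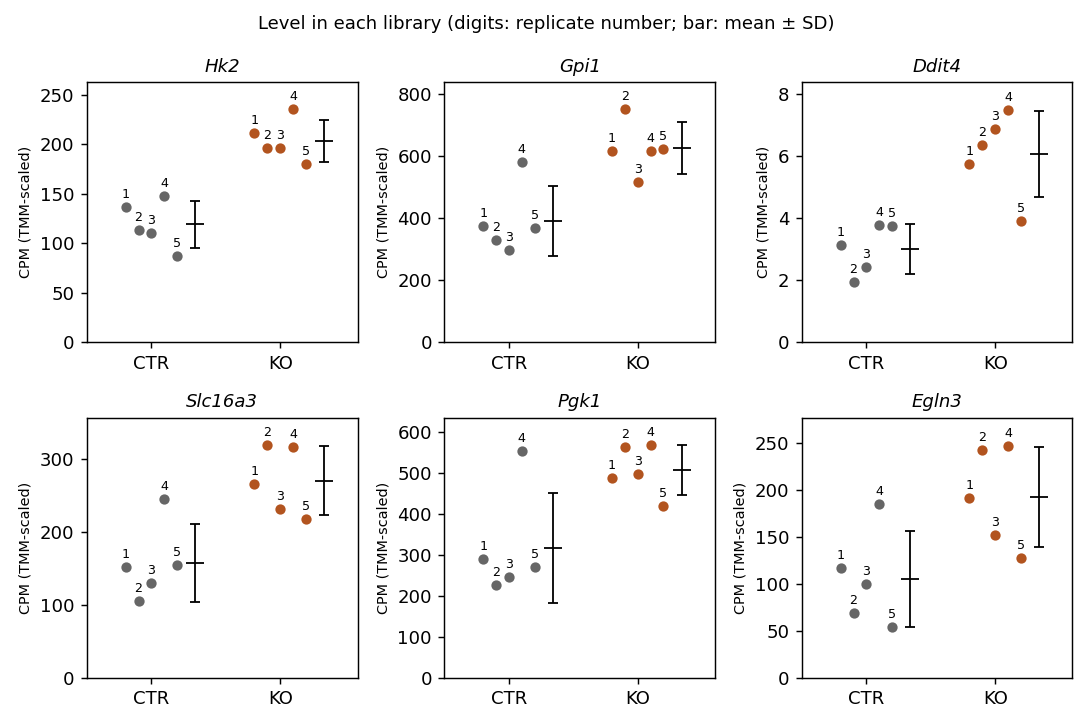
Level in CPM (y axis) of 6 genes in each CTR and KO library (points, with the replicate number) and the mean ± SD of each genotype. Hk2 is separated by genotype, while CTR 4 lies within the KO range of Gpi1, Slc16a3, Pgk1 and Egln3.

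Gpi1, glucose-6-phosphate isomerase, rose: it stood at 375, 328, 297, 581 and 367 CPM in CTR 1 to CTR 5 and at 616, 751, 514, 615 and 623 CPM in KO 1 to KO 5. CTR 4 was above KO 3, and the other CTR libraries were below every KO library. The fitted change on the log2 scale was 0.68 (SE 0.17, adjusted p = 0.0443, 1.601-fold), and 0.87 (SE 0.11, adjusted p = 0.00315) without CTR 4. Leaving out any 1 of the other 9 libraries ended the call, with adjusted p-values from 0.0522 to 0.125.

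Phosphofructokinase commits sugar phosphate to glycolysis. Its liver-type subunit Pfkl, the most abundant of the 3 per length (76.8 ± 2.56% of their sum in CTR and 78.1 ± 3.14% in KO), stood at 209, 173, 177, 266 and 211 CPM in CTR 1 to CTR 5 and at 273, 322, 223, 355 and 206 CPM in KO 1 to KO 5. The groups overlapped at both CTR 4 and KO 5, and the log2 fold change was 0.41 (SE 0.16, adjusted p = 0.167). Pfkp, the platelet-type subunit, stood at 82.5, 96.5, 87.4, 100.01 and 87.8 CPM in CTR 1 to CTR 5 and at 107, 104, 100.97, 131 and 108 CPM in KO 1 to KO 5. Its groups did not overlap, but by a narrow gap between CTR 4 and KO 3, and the log2 fold change was 0.28 (SE 0.09, adjusted p = 0.112). The muscle-type Pfkm was scarce, at 5.08 to 8.11 CPM in CTR and 6.01 to 9.45 CPM in KO.

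PFKFB enzymes make and remove fructose 2,6-bisphosphate, which activates phosphofructokinase. By group means Pfkfb4 was the more abundant of the pair per length, with 59.3 ± 10.6% of their sum in CTR and 52.5 ± 9.41% in KO. This did not hold in every library, since the share of Pfkfb3 ranged up to 52.0% in CTR and up to 56.3% in KO. Pfkfb4 stood at 47.8, 44.9, 46.7, 44.1 and 52.7 CPM in CTR 1 to CTR 5 and at 51.5, 49.5, 48.2, 48.6 and 45.7 CPM in KO 1 to KO 5. The groups overlapped, and the value of 0.04 on the log2 scale (SE 0.08, adjusted p = 0.775) was the nearest to 0 of the 33. Pfkfb3 scattered widely, at 37.1 to 113 CPM in CTR and 59.4 to 136 CPM in KO, and CTR 4 was here the lowest of the CTR libraries (log2 fold change 0.42 with all libraries and 0.25 without CTR 4).

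The aldolases split the six-carbon sugar, and Aldoa made up 98.8 ± 0.09% of their level per length in CTR and 98.4 ± 0.24% in KO. Aldoa stood at 1928, 1302, 1652, 2392 and 1688 CPM in CTR 1 to CTR 5 and at 2105, 2200.3, 2037, 2329.5 and 1613 CPM in KO 1 to KO 5. CTR 4 was the highest of all 10 libraries and KO 5 lay among the CTR libraries, and the log2 fold change was 0.20 (SE 0.15, adjusted p = 0.471; 0.33 and 0.153 without CTR 4). The minor form Aldoc had a larger value, from 21.1 ± 5.75 to 31.9 ± 3.92 CPM, or 0.60 on the log2 scale (SE 0.17, adjusted p = 0.0682; 0.75 and 0.0145 without CTR 4). Aldoa has a second identifier in the table, which held 2 to 20 counts per library and was not added.

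Triose phosphate isomerase, Tpi1, stood at 680.4, 468, 481, 922 and 569 CPM in CTR 1 to CTR 5 and at 685, 1045, 746, 1038 and 682 CPM in KO 1 to KO 5. KO 1 and KO 5 were barely above CTR 1, and CTR 4 was above 3 of the KO libraries. On the log2 scale the difference was 0.43 (SE 0.20, adjusted p = 0.230).

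For the later steps of the pathway the table splits reads between a gene and its near-copies, chiefly processed pseudogenes. Of the 33 genes, 13 had at least 1 near-copy, found by aligning coding sequences (at least 90% identity over at least 200 bases). For Gapdh, the dehydrogenase that makes NADH, 171 near-copies held 99.2% to 99.4% of the combined counts. Its own row stood at only 14.5, 11.2, 13.8, 22.5 and 15.1 CPM in CTR 1 to CTR 5 and at 16.2, 18.6, 15.8, 20.3 and 18.6 CPM in KO 1 to KO 5. The row named Gapdh is therefore uncertain as a measure of the gene. With all near-copies added, Gapdh came to 2221 ± 582 CPM in CTR against 2597 ± 263 CPM in KO, with a log2 fold change of 0.23 (adjusted p = 0.413). Of the 171 copies 19 were tested, of which 15 had values above 0, 1 was called higher and 0 lower. The copy with the highest level, Gm12070, which matches the Gapdh coding sequence at 99.9% of 999 aligned bases, stood at 839 ± 212 CPM (CTR) against 1318 ± 240 CPM (KO) (log2 value 0.65, SE 0.17, adjusted p = 0.0537). The next, Gm13394, has the same identity and aligned length and stood at 523 ± 180 and 499.8 ± 61.6 CPM (log2 fold change -0.06, adjusted p = 0.870).

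Pgk1, phosphoglycerate kinase, which makes ATP, stood at 289, 226, 245, 554 and 271 CPM in CTR 1 to CTR 5 and at 488, 564, 499, 567 and 420.4 CPM in KO 1 to KO 5. CTR 4 was above 3 of the KO libraries, and each of the other CTR libraries was below every KO library. Its log2 fold change was 0.68 (SE 0.22, adjusted p = 0.0949) with all libraries and 0.98 (SE 0.11, adjusted p = 0.00187) without CTR 4. Its near-copies, almost wholly the row named Pgk1-rs7 (100% of 1250 aligned bases identical), held 56.6% to 60.7% of the combined counts. The Pgk1-rs7 row held 449.9 ± 168 CPM in CTR against 688 ± 62.0 CPM in KO, 0.61 on the log2 scale.

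Pgam1, phosphoglycerate mutase, stood at 663, 568, 634, 809.6 and 695 CPM in CTR 1 to CTR 5 and at 760.2, 839, 829.9, 893 and 708 CPM in KO 1 to KO 5. Only CTR 4 reached into the KO range, above KO 1 and KO 5, and the log2 fold change was 0.26 (SE 0.10, adjusted p = 0.169). Eno1, enolase, stood at 560.0, 433, 493, 995 and 460.0 CPM in CTR 1 to CTR 5 and at 633, 746, 707, 763 and 572 CPM in KO 1 to KO 5. CTR 4 was the highest of all 10 libraries by a wide gap and the other CTR libraries were below every KO library. KO over CTR came to a log2 ratio of 0.22 (SE 0.20, adjusted p = 0.569) with all libraries and 0.49 (SE 0.11, adjusted p = 0.0247) without CTR 4. Near-copies held 39.3% to 44.0% of the combined counts of Pgam1 and 58.7% to 65.7% of those of Eno1, so both rows are uncertain, as is the Pgk1 row. With near-copies added and all libraries kept, the log2 fold change was 0.64 for Pgk1 (adjusted p = 0.0921). It was 0.24 for Pgam1 (adjusted p = 0.173) and 0.28 for Eno1 (adjusted p = 0.354).

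Pkm, pyruvate kinase, whose splice forms cannot be told apart in gene counts, stood at 1897, 1594, 1794, 2688 and 1858 CPM in CTR 1 to CTR 5 and at 2384, 2424, 2361, 2501 and 2123 CPM in KO 1 to KO 5. CTR 4 was again above every KO library and the rest of CTR below. The fitted change on the log2 scale was 0.26 (SE 0.13, adjusted p = 0.246) with all libraries and 0.40 (SE 0.08, adjusted p = 0.0186) without CTR 4. Across the 15 genes from hexokinase to pyruvate kinase all 15 fitted values were above 0, against 49.2% of all genes, though these signs are not independent. Their median was 0.33, and 2 were called higher, beside 1.83% of all genes.

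**Figure D3:**
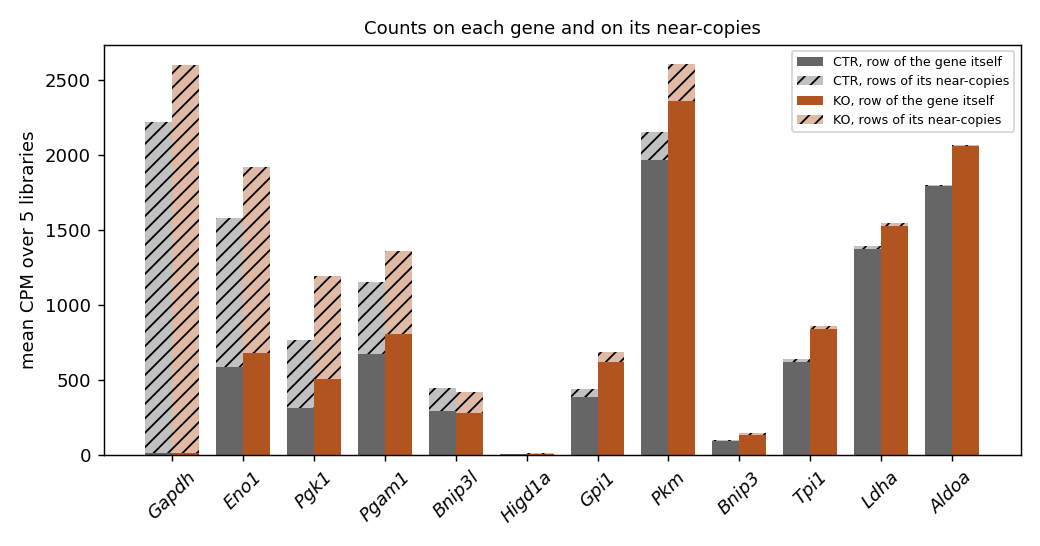
Mean CPM over the 5 libraries of each genotype (y axis) for the 12 genes whose near-copies had counts (x axis), with the gene's own row solid and its near-copies hatched. Nearly all of the Gapdh bar is hatched, and most of the Eno1 and Pgk1 bars, with near-copy shares of at least 58.7% and 56.6% in every library.

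The correction for gene length and GC content moved several fitted log2 values of glycolysis genes towards 0. Hk1 went from 0.33 to 0.15 (adjusted p = 0.457), Pfkp from 0.28 to 0.14 (0.517), Pkm from 0.26 to 0.13 (0.602) and Eno1 from 0.22 to 0.07 (0.874). Aldoa went from 0.20 to 0.11, Gapdh from 0.22 to 0.13 and Pfkfb3 from 0.42 to 0.27. Others moved up, among them Pgk1 from 0.68 to 0.73 and Pgam1 from 0.26 to 0.28. The median of the 21 glycolysis genes went from 0.33 to 0.28, and that of the 12 hypoxia response genes from 0.42 to 0.51. Over all genes tested the median went from -0.01 to -0.02. Hk2 stood at 0.73 (adjusted p = 0.0194) and Ddit4 at 0.97 (adjusted p = 0.0189) under that setting, while Gpi1 stood at 0.58 and was no longer called (adjusted p = 0.0924).

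With near-copies summed into their genes in all libraries, a setting chosen after the data were seen, Hk2 and Ddit4 were called and Gpi1 was not (adjusted p = 0.0557), beside 1.85% of genes called higher. The share of near-copies was 8.47% to 14.02% for Gpi1, 8.05% to 9.81% for Pkm, 7.18% to 12.3% for Bnip3, 2.17% to 3.62% for Tpi1, 0.820% to 1.37% for Ldha and 0.150% to 0.380% for Aldoa.

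At the exit of the pathway, Ldha, which turns pyruvate into lactate, stood at 1380.1, 973, 1242, 2016 and 1266 CPM in CTR 1 to CTR 5 and at 1427, 1648, 1565, 1635 and 1364 CPM in KO 1 to KO 5. CTR 4 was the highest of the 10 and KO 5 lay below CTR 1, with a log2 ratio of 0.15 (SE 0.16, adjusted p = 0.613; 0.33 and 0.0907 without CTR 4). Slc16a3, the lactate exporter MCT4, stood at 152, 106, 129.5, 245 and 155 CPM in CTR 1 to CTR 5 and at 266, 319.6, 231, 317 and 218 CPM in KO 1 to KO 5. CTR 4 lay above KO 3 and KO 5 while the other CTR libraries were below every KO library. The log2 fold change of 0.78 (SE 0.20, adjusted p = 0.0502) narrowly missed the threshold, and it was 1.00 (SE 0.15, adjusted p = 0.00653) without CTR 4. Pdk1, the kinase that restrains entry of pyruvate into the mitochondria, stood at 80.3, 53.7, 66.5, 105 and 46.4 CPM in CTR 1 to CTR 5 and at 113, 132, 93.6, 133 and 109.8 CPM in KO 1 to KO 5. Only CTR 4 reached into the KO range, and the log2 fold change was 0.72 (SE 0.20, adjusted p = 0.0601; 0.91 and 0.0113 without CTR 4).

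Among the regulators of the hypoxia response, Hif1a, the HIF alpha subunit that is controlled mainly through its protein, stood at 94.5, 108, 106, 88.9 and 83.8 CPM in CTR 1 to CTR 5 and at 81.4, 79.9, 82.7, 86.0 and 112 CPM in KO 1 to KO 5. The groups overlapped, KO 5 being the highest of all, and the log2 fold change was -0.12 (SE 0.11, adjusted p = 0.566). The prolyl hydroxylases Egln1 (PHD2) and Egln3 (PHD3) mark HIF alpha for breakdown and are HIF targets themselves. Egln3 stood at 117, 69.1, 99.7, 184 and 53.6 CPM in CTR 1 to CTR 5 and at 191, 243, 152, 246 and 128 CPM in KO 1 to KO 5. CTR 4 exceeded KO 3 and KO 5, and the log2 fold change was 0.87 (SE 0.30, adjusted p = 0.114; 1.18 and 0.0230 without CTR 4). Egln1 went from 90.5 ± 27.5 to 145 ± 31.0 CPM, or 0.68 on the log2 scale (SE 0.20, adjusted p = 0.0767; 0.87 and 0.0150 without CTR 4).

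Of the target genes, Ddit4 (REDD1), a restrainer of mTORC1 signalling, rose from a low level: it stood at 3.13, 1.93, 2.43, 3.78 and 3.74 CPM in CTR 1 to CTR 5 and at 5.74, 6.35, 6.88, 7.48 and 3.91 CPM in KO 1 to KO 5. Every KO library was above every CTR library, though KO 5 only just. On the log2 scale the difference was 1.02 (SE 0.23, adjusted p = 0.0321, 2.03-fold), the largest fitted value of the 33. Leaving out CTR 1 (0.0540), CTR 3 (0.0857), KO 1 (0.0712), KO 2 (0.0893), KO 3 (0.0626) or KO 4 (0.0827) moved its adjusted p past the threshold.

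Ankrd37, an ankyrin repeat gene known as a HIF target, stood at 22.8, 14.4, 18.6, 78.9 and 12.2 CPM in CTR 1 to CTR 5 and at 30.4, 43.3, 36.0, 43.2 and 34.5 CPM in KO 1 to KO 5. CTR 4 was far above every other library and the other 4 CTR libraries were below every KO library. Its log2 fold change was 0.36 (SE 0.43, adjusted p = 0.664) with all libraries and 1.14 (SE 0.18, adjusted p = 0.00742) without CTR 4, the widest such gap among the 33. Ndrg1, a stress-responsive gene, went from 115 ± 42.1 to 217 ± 67.7 CPM, or 0.92 on the log2 scale (SE 0.26, adjusted p = 0.0668; 1.13 and 0.0239 without CTR 4).

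The remaining targets were called neither with all libraries nor without CTR 4 alone. Bnip3 and Bnip3l, receptors for removal of mitochondria, differed in sign: the log2 fold change was 0.48 (SE 0.31) for Bnip3 and -0.07 (SE 0.11) for Bnip3l. Without CTR 4 the values were 0.84 for Bnip3 (adjusted p = 0.0568), -0.02 for Bnip3l and 0.40 for P4ha1 (adjusted p = 0.112). Bnip3l has 1 near-copy, Bnip3l-ps, with 27.6% to 39.8% of the combined counts. The collagen prolyl hydroxylase subunit P4ha1 had 0.19 (SE 0.19), the MYC antagonist Mxi1 0.31 (SE 0.17) and the peptide hormone gene Adm 0.77 (SE 0.37) at only 1.68 to 9.79 CPM. Higd1a, a mitochondrial protein gene, had 0.09 (SE 0.25), with 20.3% to 35.4% of its combined counts on near-copies. Higd1a was at 0.26 (adjusted p = 0.544) without CTR 4, and it was called at 0.61 (SE 0.16, adjusted p = 0.0447) without both CTR 4 and CTR 5. Over the 12 hypoxia response genes 1 was called higher, beside 1.83% of all genes, and the median was 0.42.

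CTR 4 was the highest CTR library in 28 of the 33 genes, against 29.0% of all genes tested. In 11 genes it lay above every KO library, in 15 within the KO range and in 7 below every KO library. Without it, 19 of the 33 genes separated the genotypes with KO higher, in place of 5, beside 5.95% of all genes. Among the KO libraries KO 4 was the highest in 19 genes and KO 5 the lowest in 20. For KO 4 and KO 5 the share over all genes was not counted. The median of log2 CPM over the 33 genes, relative to the CTR mean of each gene, was 0.03, -0.32, -0.11, 0.58 and -0.10 in CTR 1 to CTR 5 and 0.36, 0.59, 0.31, 0.70 and 0.25 in KO 1 to KO 5. CTR 4 thus stood at the level of KO 2, and the other 4 CTR libraries below every KO library. No cause for the position of CTR 4 was tested.

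**Figure D4:**
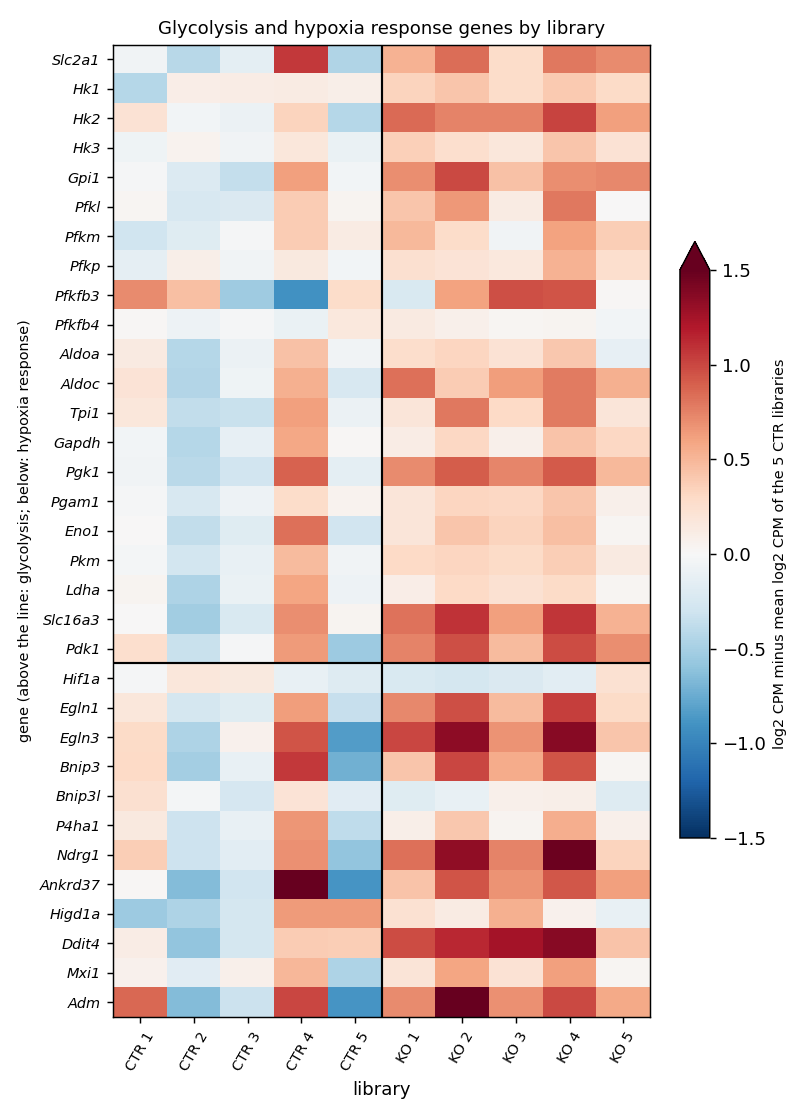
Log2 CPM minus the mean log2 CPM of the 5 CTR libraries (colour) for the 33 genes (rows) in the 10 libraries (columns). The CTR 4 column is red for most glycolysis and hypoxia genes, and Hif1a, Bnip3l and Pfkfb4 stay near white in most libraries.

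The neighbouring pathways were counted in the same fit. For the 18 tested genes of the TCA cycle, which burns pyruvate-derived carbon in mitochondria, 0 were called in either direction (DESeq2 called 2 and voom 1, all lower) and the median log2 fold change was -0.21, with 16 of 18 values below 0 and 8 lower at an unadjusted p under 0.05 (11.9% of all genes). Suclg2, Sdhb and Fh1 had every KO library below every CTR library, as in 4.55% of all genes, and their adjusted p-values were 0.0902, 0.101 and 0.119; they were chosen after their values were seen. By library, the TCA median was -0.07, -0.09, 0.00, 0.05 and 0.14 in CTR 1 to CTR 5 and -0.10, -0.20, -0.14, -0.26 and -0.12 in KO 1 to KO 5. The TCA median of CTR 4 was thus above all 5 KO libraries, unlike its glycolysis and hypoxia median.

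**Figure D5:**
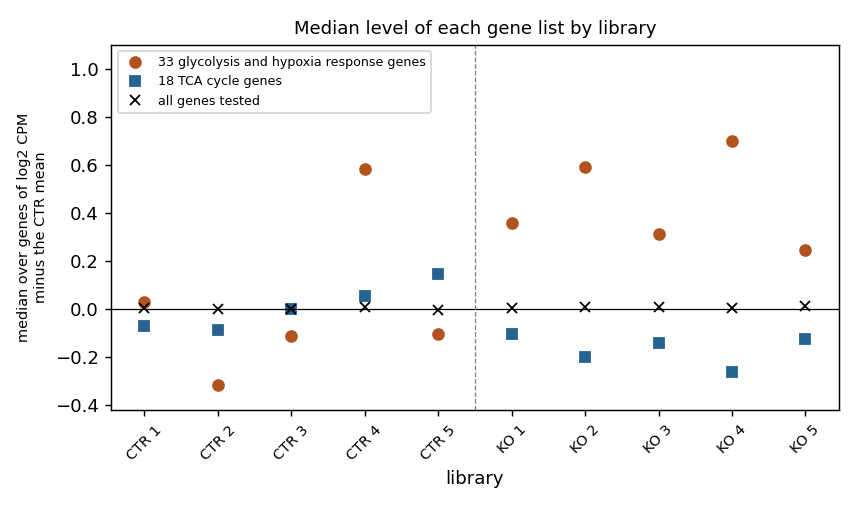
Median over genes of log2 CPM minus the CTR mean (y axis) in each library (x axis) for the 33 glycolysis and hypoxia response genes, the 18 TCA cycle genes and all genes tested. CTR 4 stands at 0.58 for the 33 genes and at 0.05 for the TCA cycle. The median of all genes lies near 0 in every library, which TMM scaling itself brings about.

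Of 29 other tested glycolysis, pyruvate and lactate genes 0 were called in either direction (1 higher and 4 lower at an unadjusted p under 0.05, and 1 lower each by DESeq2 and voom) and the median was -0.03. No gene was called among the 9 of the pentose phosphate pathway (median -0.05, 0 at an unadjusted p under 0.05, by DESeq2 or by voom) or the 8 of the serine branch (median -0.05, 1 higher and 1 lower unadjusted). In the serine branch DESeq2 called 1 higher, and voom 1 higher and 1 lower. Of 14 glycogen and UDP-glucose genes 1 was called higher, Gys1, glycogen synthase, and 0 lower, beside 1.83% and 2.11% of all genes. At an unadjusted p under 0.05, 4 were higher and 1 lower, beside 10.0% and 11.9% of all genes. DESeq2 called Gys1 and Phka2 higher and Ugp2 lower. Voom called Gbe1 and Gys1 higher and Ugp2 lower. Gys1 rose from 34.99 ± 9.14 CPM (CTR) to 62.2 ± 14.97 CPM (KO), with no overlap (fitted log2 value 0.83, SE 0.20, adjusted p = 0.0388). Without CTR 2, CTR 3, CTR 5, KO 1, KO 2 or KO 4 the Gys1 call was lost (adjusted p of at most 0.109), as it was under the length and GC correction (0.0525).

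Of 15 tested genes of HIF subunits and their control 0 were called (2 higher and 1 lower at an unadjusted p under 0.05, 1 lower by DESeq2 and 1 higher by voom), with a median of -0.04. Epas1, which encodes HIF2 alpha, stood at 249.7 ± 35.4 CPM in CTR, against 229 ± 24.0 CPM in KO. Of 38 other HIF target genes 2 were called, both higher, beside 1.83% of all genes, and the median was 0.26. At an unadjusted p under 0.05, 13 were higher and 2 lower, beside 10.0% and 11.9% of all genes. DESeq2 called 9 higher and 2 lower, and voom 14 higher and 1 lower. Of all genes, DESeq2 called 4.62% higher and voom 7.77%. Ppfia4, a liprin, rose from 18.6 ± 2.09 to 28.1 ± 3.86 CPM (fitted log2 value 0.59, SE 0.12, adjusted p = 0.0216). Kdm4b, a histone demethylase, rose from 25.3 ± 3.66 to 38.8 ± 7.13 CPM (fitted log2 value 0.62, SE 0.14, adjusted p = 0.0371). Neither pair of groups overlapped. The Ppfia4 call was lost without CTR 3, KO 1, KO 2 or KO 4 (at most 0.0646 adjusted), and the Kdm4b call without CTR 1, CTR 3, CTR 5, KO 1, KO 2 or KO 4 (at most 0.108). Under the correction for gene length and GC content neither passed (adjusted p of 0.122 for Ppfia4 and 0.107 for Kdm4b), 1 other gene was called higher and 1 lower, and the median was 0.14. Without CTR 4, 11 of the 38 were called higher and 0 lower, beside 3.62% and 2.87% of all genes. Among the 11 was Vegfa, the growth factor of blood vessels, with a log2 fold change of 0.76 (adjusted p = 0.0283) in place of 0.31 (adjusted p = 0.584).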

How the data were processed

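Bulk RNA was sequenced from cultured peritoneal macrophages in 5 CTR and 5 KO libraries. The table deposited by the authors holds raw counts per Ensembl gene, and FPKM computed by the authors. Per the submitters' processing notes, CASAVA 1.8, HISAT2, SAMtools 1.3.1, edgeR and GRCm39 were used; the read counter, annotation release and strand setting are not given, so reads of overlapping or antisense genes cannot be told apart. The deposited FPKM served only to recover gene lengths (relative deviation at most 9.65e-06 at 50 or more counts). All 20 columns were assigned by the library number in the labels. Of 53465 identifiers, 53274 had a symbol and 191 did not.

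In R 4.3.3, edgeR 4.0.16 kept genes by filterByExpr (13203 genes), scaled libraries by TMM and compared genotypes by the quasi-likelihood test, two-sided, with Benjamini-Hochberg adjustment over all genes tested and a threshold of 0.05. CPM used TMM-scaled library sizes, except in the filters at 1 CPM and for a count of 0, which used raw totals. Standard errors were derived from the fold change and its F statistic. On simulated counts of 13203 genes with these libraries' means and sizes, 28% of 1.5-fold and 73% of 2-fold changes were called, with 2 false calls among 13003 unchanged genes. Each gene was simulated independently of the others, so no simulated library stood apart across many genes as CTR 4 did. These rates therefore need not hold for the real libraries.

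Other settings were DESeq2 size factors, library size only, 2 other filters (none, and 1 CPM or more in 5 libraries or more), DESeq2 1.42.0, limma 3.58.1 voom with quality weights, a robust fit, the replicate number as a block, each library left out in turn, CTR 4 and CTR 5 both left out, and a correction for gene length and GC content (mgcv 1.9.3). Near-copies were found with blastn on GENCODE M21 coding sequences; a copy not annotated as a pseudogene had to cover at least 90% of the coding sequence. Promoters are RefSeq on GRCm38.p6, another build than the counts. One list of marker genes is not reported here. The genes and all lists were chosen with earlier results of these data known. Values in every library are given for called genes, genes without overlap between groups and the most abundant isoform of each glycolysis step, by a fixed rule; Slc2a1, Slc16a3, Pdk1, Hif1a, Egln3 and Ankrd37 and the named near-copies were added for their role or after their values were seen.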

Additional observations from a re-analysis of the deposited data

Results flagged for a closer look

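In 66 groups of 5 libraries (33 genes in each genotype), 9 held 1 library whose gap to its nearest neighbour was over 0.71 of the group's range. Chance alone flags about 1 in 20 such groups, and genes of 1 library are not independent. CTR 4 was that library in 6 of the 9, each time as the highest. It held 392 CPM of Slc2a1 (other CTR libraries 137 to 180.0), 581 CPM of Gpi1 (297 to 375), 554 CPM of Pgk1 (226 to 289), 995 CPM of Eno1 (433 to 560.0), 2688 CPM of Pkm (1594 to 1897) and 78.9 CPM of Ankrd37 (12.2 to 22.8). The others were 69.1 CPM of Hk1 in CTR 1 (98.6 to 100.8 in the other CTR libraries), 131 CPM of Pfkp in KO 4 (100.97 to 108 in the other KO libraries) and 112 CPM of Hif1a in KO 5 (79.9 to 86.0).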

How the results depend on the processing

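The median log2 fold change of the 33 genes stayed above 0 in every setting, from 0.30 without KO 4 to 0.57 without CTR 4 and CTR 5. Counts of calls moved more, and the cause was not tested. Members called higher numbered 3, and 0 were called lower in any setting. They numbered 9 with library size only (2.36% of all genes), 1 with no filter, 13 by the DESeq2 Wald test (4.62%), 20 by voom (7.77%), 17 without CTR 4 and CTR 5 (5.13%), 2 after the length and GC correction (1.73%), and 1 to 15 when 1 library was left out. The count was 1 without CTR 1, CTR 3, KO 1, KO 2, KO 3 or KO 4, and 15 without CTR 4. In those fits, in that order, 156, 55, 52, 32, 154 and 55 of all genes were called higher, and 484 without CTR 4. Over all genes, 241 were higher and 279 lower. With no filter these were 122 and 139, by DESeq2 598 and 691, by voom 1026 and 893, without CTR 4 and CTR 5 694 and 491, and with 1 library left out 32 to 484 and 30 to 384. With library size only they were 312 higher and 213 lower, a shift of the split towards higher calls. In the other pathway lists 3 genes were higher and 0 lower. Library size only gave 6 higher, no filter 1, DESeq2 12 higher and 7 lower, voom 18 and 5, no CTR 4 and CTR 5 14 and 1, the length and GC correction 1 and 4, and 1 library left out 0 to 14 and 0 to 1. The sign turned for Pfkfb4 (-0.044) and Bnip3l (0.020) under the length and GC correction, and for Higd1a without CTR 1 (-0.035), CTR 2 (-0.022) or KO 3 (-0.012), in a range of -0.035 to 0.27 with 1 library left out (0.61 without CTR 4 and CTR 5). Near-copies added to their genes were a setting chosen after the data were seen.

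Pairing by replicate number is not stated by the labels, and the data gave no hint of pairing: across genes, the residuals of same-numbered libraries had correlations of -0.126 to 0.0582, and 0 of 5 libraries correlated best with its own number. With the replicate block, 59 genes were higher and 45 lower, 2 members were higher (Hk2 and Ndrg1), and 1 gene of the other lists was lower.

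With 5 libraries a group and at this depth, most 1.5-fold changes were missed in simulation, so a gene that was not called is not shown to be unchanged.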
